A study of Mus musculus with 10 samples.

Results

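Villus enterocytes (ENT) were compared with Lgr5+ intestinal stem cells (Lgr5+ISC), the ends of the absorptive path of the mouse small intestine. The members were the 2 arrays titled ENT and the 2 titled Lgr5+ISC, 4 of the 10 arrays of the series, read over 12393 genes with 1 probe set per gene. RNA was hybridised to Affymetrix 430A 2.0 mouse arrays, and 2 arrays of crypt enterocyte progenitors (Ent-Pro) served to place each change before or after that stage. The series' other 4 arrays, of secretory progenitors, entered the shared estimate of the spread and no comparison described here.

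All mice were C57BL/6. The stem cells were sorted by GFP flow cytometry from Lgr5-eGFP-Cre mice, with no deletion or drug named for them. The Ent-Pro cells came from crypts, and the ENT cells from villi, of Atoh1-/- mice, which the labels describe as lacking every secretory cell. Crypts were freed of villi by hand and placed in 5 mM EDTA for 50 min, and villus cells were released in 5 mM EDTA for 25 min, with no sort named for either. Genotype, sorting and dissociation therefore change together with cell stage between Lgr5+ISC and both other groups, and their parts in a difference cannot be told apart. The ENT and Ent-Pro groups share the genotype and differ in position, crypt or villus, and in the time in EDTA. How Atoh1 was deleted, the age of the mice, and whether the paired arrays of a group represent different mice were not given in the sources used here. Every p-value below therefore rests on differences among these particular arrays, and that spread could be technical.

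As background, Lgr5+ cells at the crypt base divide under Wnt signals and give rise to absorptive and secretory progenitors. Notch signalling holds Atoh1 down in cells that become absorptive. Their descendants divide a few more times in the crypt, leave the cell cycle near its mouth and climb the villus as enterocytes, which digest and take up sugars, peptides, fats and minerals through a brush border of microvilli.

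Lgr5 was highest in the group sorted by its reporter and Atoh1 was lower in both Atoh1-/- groups, but products of secretory cells were read in all 3 groups. Lgr5, a receptor of R-spondins and the gene that carries the reporter, read 11.36 and 11.06 (log2) on the Lgr5+ISC arrays, 7.91 and 7.55 on the Ent-Pro arrays and 7.11 and 6.38 on the ENT arrays. Atoh1, the deleted gene and the master regulator of the secretory lineage, read 7.68 and 7.80, then 5.75 and 5.78, then 4.97 and 5.18, and whether its probe set lies in the deleted part was not given. The sorted stem cell arrays also read high for products of secretory cells, with the Paneth lysozyme Lyz1 at 14.57 and 14.89 and the goblet peptide Tff3 at 13.35 on both. The Atoh1-/- arrays, labelled as free of secretory cells, still read 10.31 and 11.15 (Ent-Pro) and 8.22 and 11.10 (ENT) for Lyz1, and 9.15 and 8.98 in Ent-Pro for the endocrine granule protein Chgb. Array medians lay between 6.83 and 6.98, and the correlation over genes was 0.886 to 0.893 between Lgr5+ISC and ENT arrays, against 0.992 to 0.995 between the 2 arrays within each of the Lgr5+ISC, Ent-Pro and ENT groups.

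The ends of the path differed widely. In the limma fit, with Benjamini-Hochberg adjustment over all genes and a threshold of 0.05, 6094 of 12393 genes (49.2%) were called. Of these, 2769 (22.3% of all genes) rose and 3325 (26.8%) fell in ENT. Counts of gene lists below are to be read beside these shares. The median log2 difference over all genes was -0.01. A change of at least 2-fold was seen in 1441 of the called genes that rose and 1848 of those that fell. Tested against a 2-fold change rather than none, 773 genes were higher and 839 lower.

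Genes called with at least a 4-fold change, and with no overlap between the ENT and Lgr5+ISC arrays, are the main genes below. They numbered 994 (8.02% of those tested), of which 557 (4.49%) were higher and 437 (3.53%) lower in ENT. At least 32-fold changes were seen in 40 main genes that rose and 9 that fell.

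The path was then split at Ent-Pro. In the first step, from Lgr5+ISC to Ent-Pro, 3165 genes (25.5%) were called, 1498 higher (12.1%) and 1667 lower (13.5%). In the second, from Ent-Pro to ENT, 4792 genes (38.7%) were called, 2291 higher (18.5%) and 2501 lower (20.2%). The count of the first step depended on single arrays, falling to 1704 when the second Ent-Pro array was left out, to 1816 when the first was, and to 1817 when Lgr5+ISC replicate 2 was. For each main gene the share already present in Ent-Pro was the first step as a percentage of the whole log2 difference. A share of 75% or more is called made in Ent-Pro, 25% or less came later, and the rest was split over both steps. Because the steps share arrays with the whole change and add up to it, the share is a description and has no test.

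Most main genes that rose were split over both steps, and among those that fell the split class was the largest. Among the 557 main genes that rose, 38 were made in Ent-Pro, 366 were split and 153 came later, with a median share of 40.6% (quartiles 22.9% and 57.4%). Among the 437 that fell, 60 were made in Ent-Pro, 218 were split and 159 came later, with a median share of 37.3% (quartiles 15.4% and 57.0%). By the separate tests, 340 of the risers were called in both steps, 34 in the first alone, 173 in the second alone and 10 in neither. Of the main genes that fell, 204 were called lower in both steps, 61 in the first alone, 168 in the second alone and 4 in neither.

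**Figure D1:**
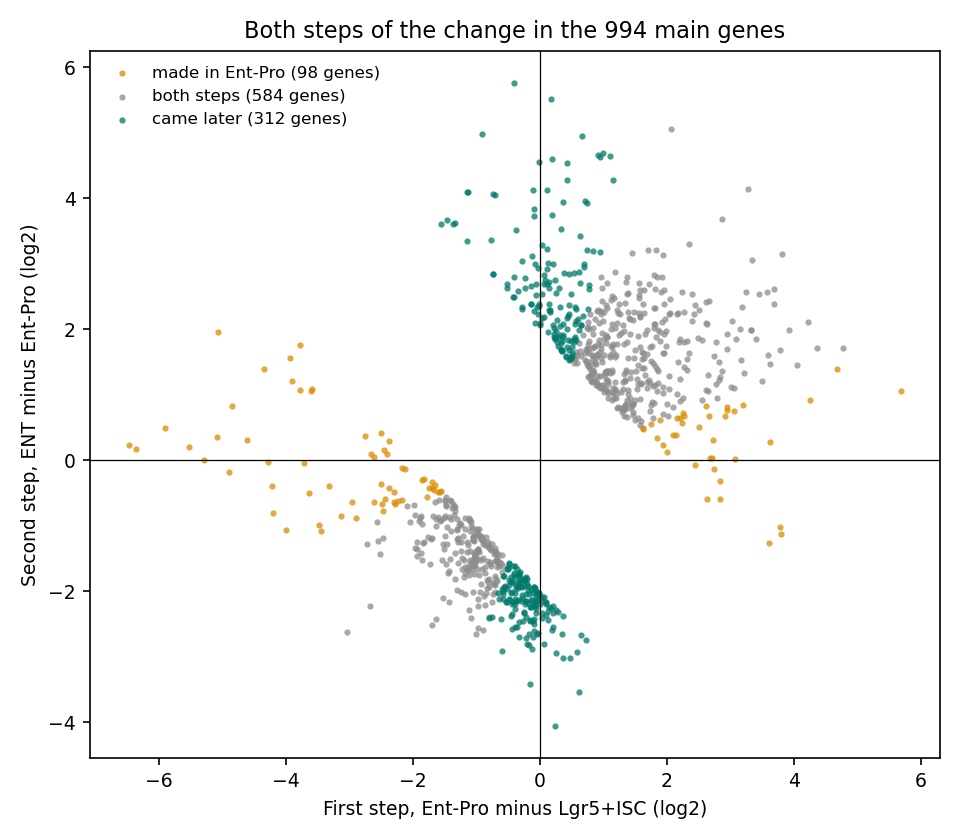
Each point is 1 of the 994 main genes, with the first step (Ent-Pro minus Lgr5+ISC, log2) on the horizontal axis, the second step (ENT minus Ent-Pro, log2) on the vertical axis and colour for the stage of the change. Genes made in Ent-Pro lie along the horizontal axis and those that came later along the vertical one; the empty diagonal band is the 4-fold minimum that main genes had to pass.

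**Figure D2:**
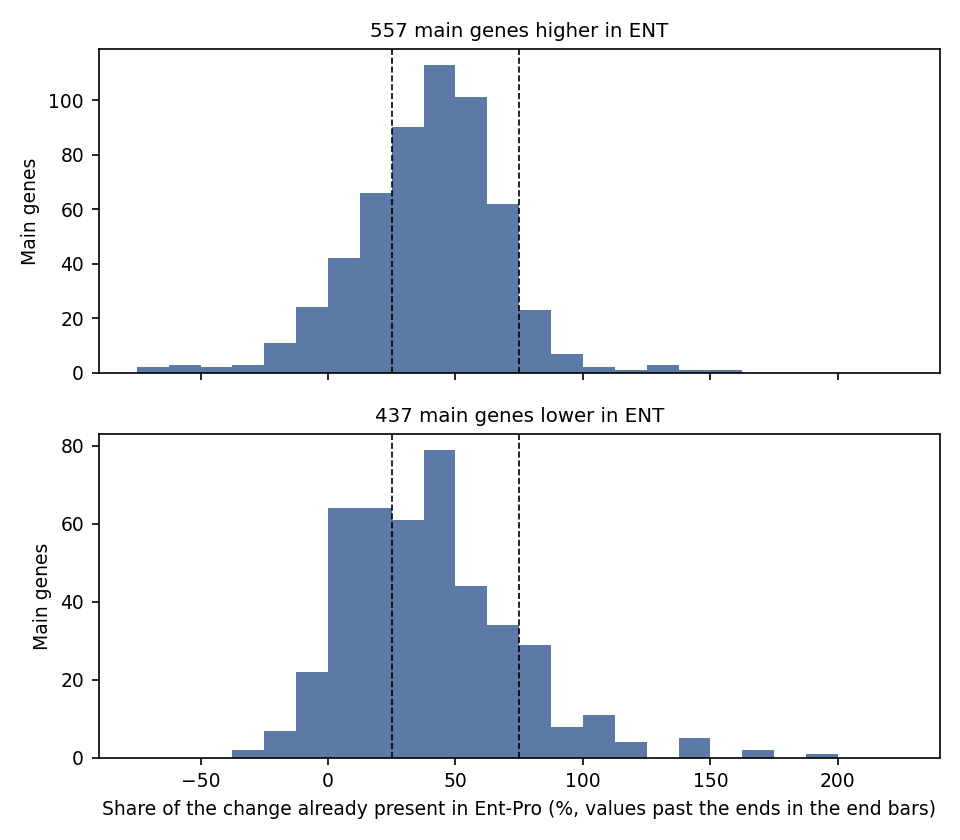
Histograms of the share of the whole change already present in Ent-Pro (%), for the 557 main genes higher and the 437 main genes lower in ENT, with dashed lines at 25% and 75%. Of the rising genes 153 lie at or below the lower line and 38 at or above the upper one, and of the falling genes 159 and 60.

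The largest rise was that of Egln3, a prolyl hydroxylase that marks hypoxia-inducible factors for destruction. It read 4.83 and 4.59 in Lgr5+ISC, 7.88 and 8.08 in Ent-Pro and 12.27 and 11.98 in ENT, a rise of 7.41 ± 0.16 (log2, SE of the fit, 2 arrays a group; adjusted p = 1e-07), or 170-fold. Each group stood apart from the next, and 44.1% of the rise was present in Ent-Pro. The 2 probe sets of Egln3 rose by 3.98 and 7.41.

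Cd55, a membrane inhibitor of complement, followed with 4.94 and 5.11, then 7.41 and 6.76, then 12.09 and 12.21 (139-fold, adjusted p = 9.9e-07). Its second step of 5.06 was more than its first of 2.06, a share of 28.9%. That share was 24.3% without Ent-Pro replicate 1 and 19.2% with the mean of probe sets. The 2 probe sets of Cd55 rose by 3.56 and 7.12. Bst1, an ectoenzyme that makes cyclic ADP-ribose, rose by 6.97 (126-fold) with 54.7% in Ent-Pro. Pmp22, a tetraspan membrane protein best known from myelin, took the opposite course to Cd55. It read 4.80 and 4.37 in Lgr5+ISC, had reached 9.99 and 10.56 in Ent-Pro and ended at 11.34 on both ENT arrays, so that 84.2% of its 108-fold rise was made in Ent-Pro.

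The other 8 of the 12 largest rises ranged from 6.07 to 6.54. They were the sulfate carrier Slc13a1, the ectonucleotidase Enpp3, the Ly6 family member Ly6m, adenosine deaminase Ada, guanine deaminase Gda, the dipeptidase Dpep1, the glucose carrier Slc2a2 and the peptide carrier Slc15a1, and all 8 were split over both steps, with shares from 43.7% to 73.6%. Enpp3 sat close to the 75% boundary and crossed it when ENT replicate 1 or Ent-Pro replicate 2 was left out. Its 5 probe sets ranged from 0.06 to 7.16. St3gal4, a sialyltransferase, rose 66.6-fold with 77.1% in Ent-Pro, and the keratin Krt20, of differentiated gut epithelium, rose 35.8-fold with 82.2%.

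**Figure D3:**
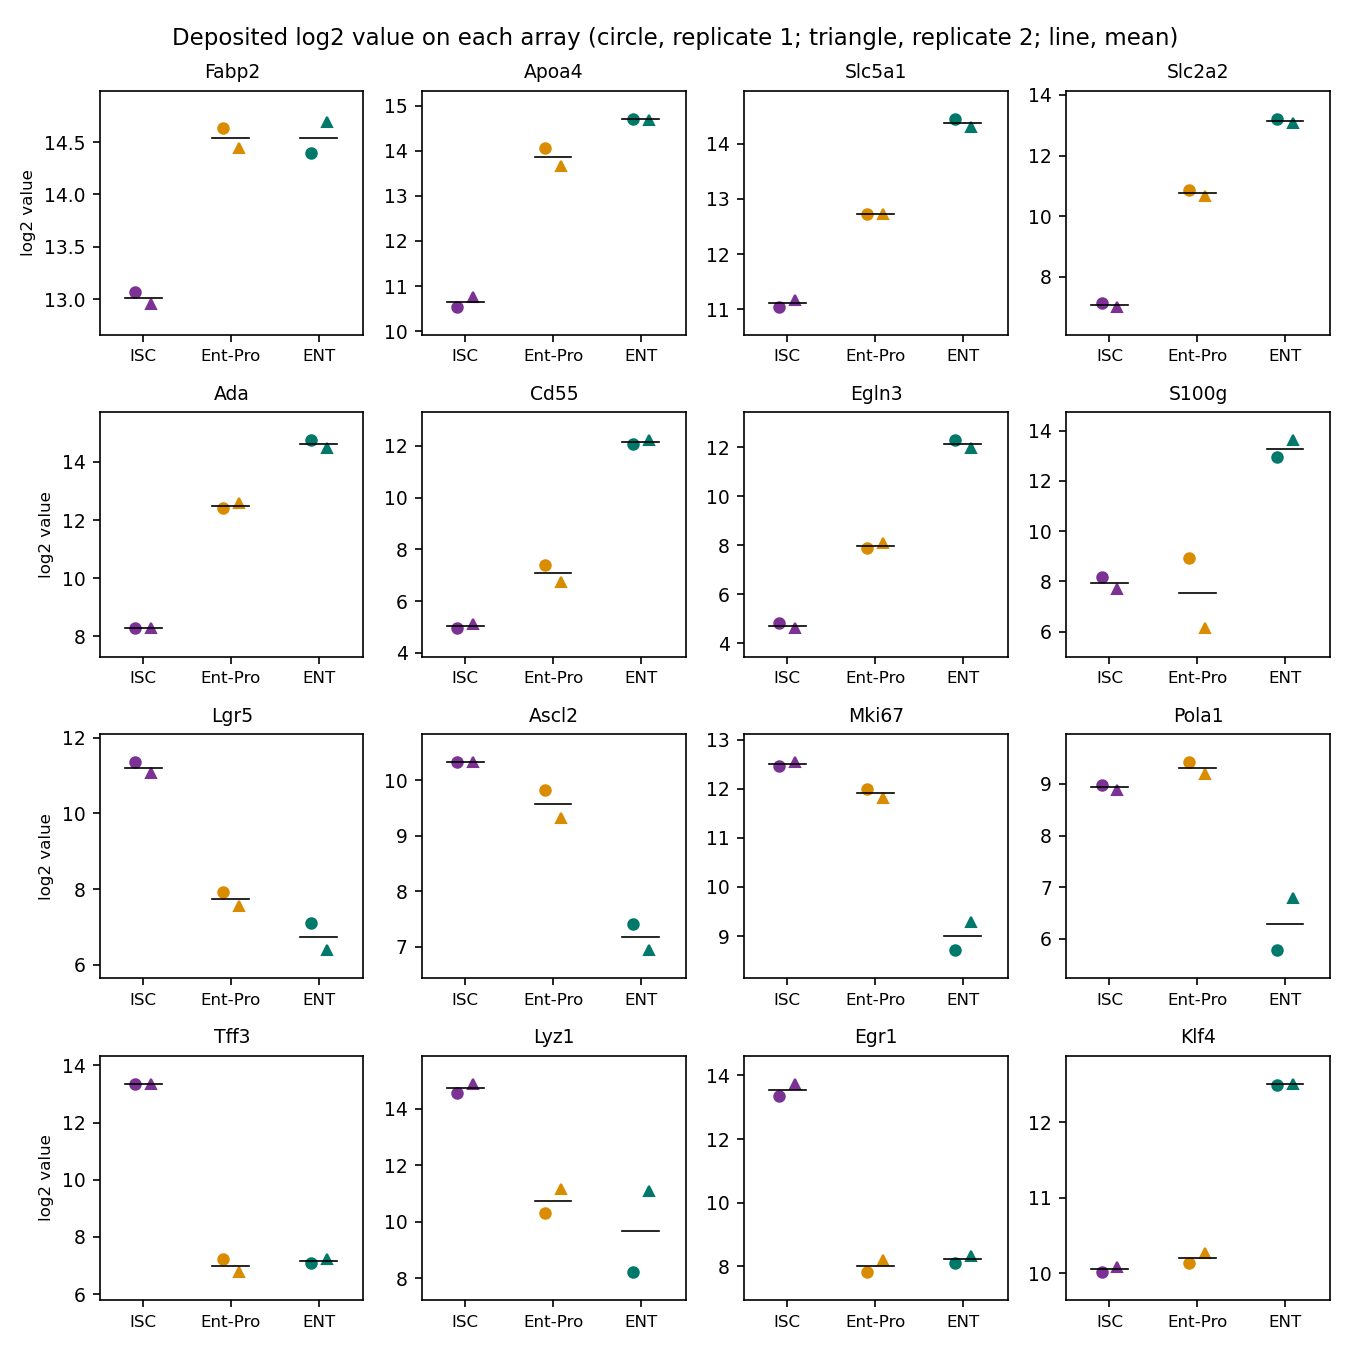
Deposited log2 values of 16 genes on the 2 Lgr5+ISC, 2 Ent-Pro and 2 ENT arrays (circle, replicate 1; triangle, replicate 2; line, group mean), each panel with its own vertical scale that does not start at 0. Fabp2 and Apoa4 were near their villus level in Ent-Pro, S100g and Klf4 rose after it, Lgr5, Tff3 and Egr1 fell before it, and Mki67 and Pola1 fell after it.

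Genes of fat absorption rose, some of them mostly in the first step. Of 23 measured genes that take up, re-esterify and export fat, 20 rose (22.3% of all genes tested did), none fell, and the median difference was 2.80. Of the 20, 6 were made in Ent-Pro, 11 were split and 3 came later. Fabp2, the intestinal fatty acid binding protein, read 13.07 and 12.96 in Lgr5+ISC, 14.63 and 14.44 in Ent-Pro and 14.40 and 14.69 in ENT. Its 2.89-fold rise (1.53 ± 0.17, adjusted p = 7.5e-05) was present in Ent-Pro to 99.5%, and the Ent-Pro and ENT arrays overlapped. Fabp1, the liver-type binding protein, rose 5.57-fold with 84.4% in Ent-Pro and a second step that was still called (0.39, adjusted p = 0.035).

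The apolipoproteins of chylomicrons, the particles in which fat leaves the enterocyte, followed a similar course. Apoa4 read 10.54 and 10.77, then 14.05 and 13.65, then 14.71 and 14.69, a 16.5-fold rise (adjusted p = 4.2e-06) of which 79.1% was made in Ent-Pro. Apoa1 rose 12.1-fold with 81.0%. Both second steps were called (adjusted p = 0.018 and 0.017), and both shares were just under 75% without Ent-Pro replicate 1. Apoa1, Apoa4, Fabp1 and Fabp2 all read 14.40 or higher in ENT, on a scale whose highest value was 15.2. Apoc2 (35.7-fold), Apoc3 (20.0-fold), the acyltransferase Mogat2 (23.9-fold) and the fatty acid receptor Cd36 (25.2-fold) rose further and were split over both steps, with 52.0% to 63.3% in Ent-Pro. Fabp6, the ileal bile acid binding protein, is given here because its ENT arrays disagreed: it read 5.00 on ENT replicate 1 and 9.43 on replicate 2, and was not called (adjusted p = 0.24).

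Brush border genes rose in both steps. All 12 measured hydrolases rose, by a median of 3.92 (2.62 in the first step and 1.32 in the second), with 2 made in Ent-Pro, 7 split and 3 later. The peptidase Ace read 6.54 and 6.65, then 9.55 and 8.90, then 11.37 and 11.24, a 26.2-fold rise (adjusted p = 1.9e-06) split 55.8% to the first step. Trehalase Treh (26.1-fold, 55.4%) and the meprin subunit Mep1b (25.9-fold, 67.3%) were close to it. Lactase, Lct, rose 13.1-fold and stood at 12.62 and 11.53 in Ent-Pro against 12.71 and 12.99 in ENT, a share of 79.1% that fell to 65% without Ent-Pro replicate 1. The phosphatase Akp3 behaved differently, at 4.90 and 4.67, then 4.97 and 4.82, then 8.66 and 9.39. Its Ent-Pro and Lgr5+ISC arrays overlapped, and 2.6% of its 18.9-fold rise lay in the first step.

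Of 12 structural genes of the microvillus, 10 rose, with a median of 1.75. The actin bundler Pls1 was the 1 gene made in Ent-Pro (8.02-fold, 83.3%), whereas the scaffold Pdzk1 (22.9-fold), ezrin Ezr (4.98-fold) and villin Vil1 (3.13-fold) were split, with 53.0%, 63.0% and 41.8%. The protocadherin Cdhr5, of the links between microvilli, rose 6.91-fold with 27.2% in Ent-Pro, and with 25% or less in 3 of the alternatives.

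Nutrient carriers rose in 23 of 26 cases, with a median of 3.33, and 16 of the 23 were split. The sodium glucose carrier Slc5a1 divided its 9.63-fold rise evenly, at 11.05 and 11.17, then 12.73 on both, then 14.45 and 14.30. Slc2a2, the basolateral glucose carrier, rose 67.7-fold from a mean of 7.07 through 10.84 and 10.68 to 13.22 and 13.08 (60.7%), and Slc15a1 67.3-fold (71.8%). In each of these the 3 groups kept apart.

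A pair of genes of iron and calcium transport, named for the size of their second step, showed little first step. Slc40a1, ferroportin, which exports iron to the blood, read 7.30 and 6.41, then 8.39 and 6.63, then 12.15 and 12.76, a 48.6-fold rise (adjusted p = 3.2e-05) with 11.7% in the first step, or 27% without Ent-Pro replicate 2. S100g, the calcium-binding calbindin, read 8.18 and 7.71, then 8.94 and 6.12, then 12.97 and 13.61. Its second step of 5.76 (adjusted p = 0.0011) was the largest of any main gene, and its Ent-Pro arrays lay on either side of the stem cell arrays.

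Genes of nucleotide breakdown and of detoxification also rose. Of 11 measured genes of nucleotide breakdown, 10 rose and 1 fell, with a median of 2.86. The count that fell was 0 without ENT replicate 1 or Lgr5+ISC replicate 1. Adenosine deaminase Ada read 8.28 and 8.27, then 12.41 and 12.59, then 14.74 and 14.48 (80.9-fold, adjusted p = 1.9e-06, 66.7% in Ent-Pro). Gda (79.5-fold, 58.5%) and xanthine dehydrogenase Xdh (19.3-fold, 47.5%), which act later in purine breakdown, also rose in both steps. Of 26 genes of xenobiotic metabolism 24 rose, with a median of 3.46, and 17 of them were split. The cytochromes Cyp3a13 (45.2-fold, 73.6%) and Cyp4f14 (34.2-fold, 71.2%) lay near the upper boundary. Cyp3a11 rose 33.7-fold, but its Ent-Pro arrays read 12.51 and 9.30, so that its share of 38.1% became 6% without replicate 1. Cyp1a1, a target of the aryl hydrocarbon receptor, read 4.69 and 4.79, then 5.55 and 4.79, then 9.29 and 10.13, and since it was near background in Lgr5+ISC its rise was at least 30.2-fold, with 8.6% in the first step.

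Fatty acid oxidation changed less, with 10 of 14 genes higher and a median of 0.93. The peroxisomal enzyme Ehhadh rose 10.6-fold (30.6% in Ent-Pro), and the mitochondrial enzymes Acadl, Etfdh and Cpt2 rose 3.21-, 2.90- and 2.49-fold, with 51.0% to 68.4%. Me1, malic enzyme, which supplies NADPH for lipid synthesis, rose late. It read 6.30 and 6.55, then 7.58 and 7.25, then a mean of 12.10, with 17.4% of a 51.1-fold rise in the first step.

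Regulators of the enterocyte programme moved less than its products. Of 21 transcription factors 13 rose and 3 fell, with a median of 0.89; the count that fell was 1 without ENT replicate 2 or either Lgr5+ISC array. Hnf4a, a nuclear receptor of gut and liver epithelium, read 12.98 and 12.79, then 12.99 and 13.15, then 13.11 and 13.05, and was not called (0.19 ± 0.12, adjusted p = 0.23). Its 4 probe sets ranged from 0.19 to 1.77, and the one used, the brightest, had the smallest difference. The related gene Hnf4g read 6.53 and 6.52, then 7.85 and 8.30, then 9.52 and 10.43, a 10.9-fold rise (adjusted p = 3.3e-05) with 45.0% in Ent-Pro. Creb3l3, a membrane-bound factor of lipid metabolism, rose 16.6-fold with 54.2%.

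Klf4, a factor of post-mitotic gut epithelium, read 10.02 and 10.09, then 10.14 and 10.27, with a mean of 12.50 in ENT and 6.2% of its 5.45-fold rise (adjusted p = 2.9e-06) in the first step. Prdm1, the repressor Blimp1, rose 7.32-fold with 26.3%, or 19% without Ent-Pro replicate 2. Cdx2, a homeobox gene of intestinal identity, fell by 0.95 (adjusted p = 0.00019) on the probe set used, while its other probe set went the opposite way.

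Of 12 tight junction genes 6 rose and 2 fell (22.3% and 26.8% of all genes did), with a median of 0.31. Fewer fell without ENT replicate 2 or either Lgr5+ISC array. Cldn4 (6.82-fold) and Cldn23 (4.46-fold) rose late, with shares of -10.1% and 15.8%. Cldn2, a pore-forming claudin of the crypt, fell by 1.40 (adjusted p = 0.014), a call that was lost without ENT replicate 2 or either Lgr5+ISC array (adjusted p = 0.063 to 0.068).

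**Figure D4:**
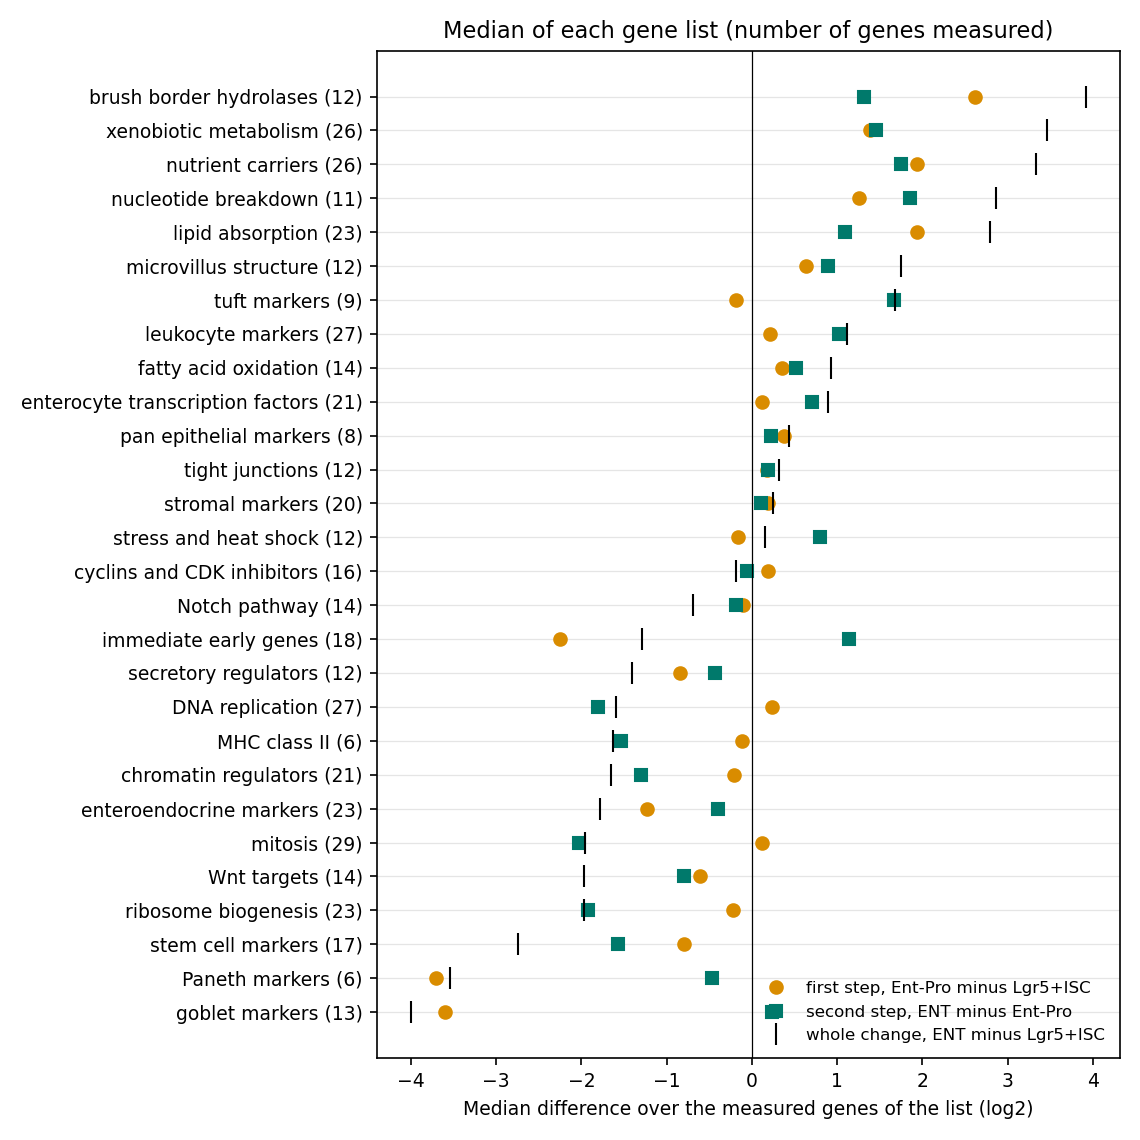
Median log2 difference over the measured genes of each of 28 gene lists, for the first step (circle), the second step (square) and the whole change (bar), with the number of genes measured in brackets. Goblet and Paneth markers changed in the first step and DNA replication, mitosis and ribosome biogenesis in the second, while carriers, hydrolases and lipid absorption rose in both.

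Stem cell markers differed in the share of their fall present in Ent-Pro. The Ent-Pro samples are bulk crypt cells with no sort named, and the part of any stem cells among them was not tested. Of 17 measured markers 16 fell and none rose, with a median of -2.74, and the 16 divided into 5 made in Ent-Pro, 3 split and 8 later. Lgr5 fell by 4.46 ± 0.61 (22.0-fold, adjusted p = 0.00027), of which 77.9% lay before Ent-Pro. That share was 72% without ENT replicate 1 and 74% without Ent-Pro replicate 2, and its second step of -0.99 was not called (adjusted p = 0.25). The Lgr5+ISC cells were chosen by the reporter that Lgr5 carries, so its call and share are not independent of the sort. Tnfrsf19, a receptor known as Troy, read 8.61 and 8.41, then 5.22 and 5.55, then 4.60 and 4.48. It was near background in ENT, so its fall on the probe set used was at least 13.2-fold, with 78.7% made in Ent-Pro. Its 3 probe sets ranged from -3.97 to -0.14.

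Ascl2, the transcription factor of the stem cell state, took the later course. It read 10.33 and 10.32, then 9.82 and 9.32, then 7.41 and 6.94, an 8.87-fold fall (adjusted p = 0.0002) of which 24.1% lay in the first step, or 32% without Ent-Pro replicate 1. Its first step was not called (adjusted p = 0.23). Fstl1, a secreted glycoprotein, and the RNA-binding protein Msi1 were split, with 63.8% and 59.5% of falls of 15.4- and 9.82-fold, and a second probe set of Msi1 went the opposite way.

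Targets of Wnt signalling fell in 10 of 14 cases and rose in 1, with a median of -1.96. The count that rose was 0 when any 1 of the 6 arrays was left out. Ephb3, an ephrin receptor that positions crypt cells, fell 8.21-fold with 80.5% in Ent-Pro. Axin2, a feedback inhibitor of the pathway, read 11.32 and 11.19, then 10.01 and 9.90, then 8.46 and 8.32, an even descent with 45.3% of a 7.28-fold fall in the first step. Its 2 probe sets ranged from -2.86 to -0.92. Of 14 Notch pathway genes 7 fell and 1 rose (26.8% and 22.3% of all genes did). Fewer fell when any of the arrays except ENT replicate 1 was left out. The receptors Notch1 (4.39-fold) and Notch2 (4.17-fold) fell late, with 19.1% and -1.6%, though 1 of 2 probe sets of Notch2 went the opposite way. The target Hes1 fell by 1.38 (adjusted p = 0.0067), nearly all of it in the second step, and was not called without ENT replicate 2 (adjusted p = 0.054). Numb, an inhibitor of Notch, was the gene that rose (3.36-fold).

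The machinery of division and growth fell mostly after Ent-Pro. All 27 measured genes of DNA replication fell, with a median of -1.60, and 24 of them came later. All 29 genes of mitosis fell, with a median of -1.96, 24 of them later. All 23 genes of ribosome biogenesis fell, with a median of -1.97, 20 of them later. Every gene of the 3 lists was called lower in the second step. In the first step the medians were 0.23, 0.12 and -0.22, with 4 replication genes called higher and 3 lower, 4 mitosis genes higher and 2 lower, and 2 ribosome biogenesis genes higher and 5 lower.

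Mki67, the proliferation antigen Ki-67, read 12.47 and 12.54, then a mean of 11.91, then 8.71 and 9.30. It fell 11.3-fold (adjusted p = 3.1e-05) with 17.0% in the first step. Pola1, the catalytic subunit of the polymerase that primes DNA synthesis, read 8.98 and 8.89, then 9.42 and 9.19, then 5.78 and 6.79, so that its second step of -3.02 exceeded its whole change of -2.65. The spindle checkpoint kinase Bub1 did likewise, with a second step of -3.02 against -2.54, as did Hells, a chromatin remodeller of replicating cells, with -3.54 against -2.93. Pold1, the catalytic subunit of polymerase delta, fell 8.82-fold and was split (42.3%).

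Ncl, nucleolin, read 13.23 and 13.20, then 13.19 and 13.18, then 10.24 and 10.84. Its first step was -0.03 and its second -2.64 (adjusted p = 4.6e-05), a 6.38-fold fall. Gnl3, nucleostemin (8.10-fold, 14.7%), and the snoRNP core protein Nop58 (8.13-fold, 10.7%) also fell mostly in the second step, though Gnl3 was already called lower in the first (-0.44, adjusted p = 0.041), and Nop56, its partner, fell 11.4-fold with 31.2% in the first step. Of 21 chromatin regulators 19 fell, with a median of -1.65, and 12 of them came later, among them the maintenance methyltransferase Dnmt1 (5.50-fold, 12.4%) and its cofactor Uhrf1 (5.77-fold).

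Promoters are shown to set letters known from these programmes beside the genes that moved, since the rises and the late falls each moved in groups. Windows of 250 bases before RefSeq starts (GRCm38.p6) were found for 9882 of the 12393 genes, 12559 windows in all, and 7 short sequences were searched on both strands. CAAAGTCCA, an HNF4 site, was held by 0.486% of all windows, by 9 of 609 windows of main genes that rose (1.48%) and by 0 of 442 of main genes that fell. TTCCCGC, an E2F site, was held by 5.81% of all windows, 3.78% of those of risers, 53 of 442 windows of fallers and 31 of 160 windows (19.4%) of main genes that fell after Ent-Pro. For TATAAA, the TATA box, the shares were 8.81% of all windows and 13.6% of those of risers, with 38 of 442 for fallers. For the AGATAA letters bound by the GATA factors they were 7.12%, 8.70% and 5.66%. For CCATAAA, a CDX site, they were 1.81%, 2.79% and 2.71%. For TTTGAA, the cell cycle CHR element, they were 11.5%, 11.8% and 14.3%. For CTTTGAT, a TCF/LEF site, they were 2.56%, 2.63% and 2.26%. The HNF4 letters read on the opposite strand share 5 letters with the TCF/LEF letters. Other sequences also have letters in common, as ATAAA in the CDX and TATA letters and TTTGA in the CHR and TCF/LEF letters. These shares have no test, a match is not a bound site, and no match says only that the letters are not in the window.

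The 9 risers with the HNF4 letters were B3gnt3, Cyp2c65, Cyp2c68, Cyp3a11, Sec16b, Slc3a1, Treh, Trim31 and Trpv6. The 3 of them with the largest rises are printed, 5′ to 3′ in the direction of the gene, with every match to any of the 7 sequences in capitals. This set and the next were chosen after the shares had been seen, among genes with 1 start.
Cyp3a11, chr5:145879855-145880104, minus strand: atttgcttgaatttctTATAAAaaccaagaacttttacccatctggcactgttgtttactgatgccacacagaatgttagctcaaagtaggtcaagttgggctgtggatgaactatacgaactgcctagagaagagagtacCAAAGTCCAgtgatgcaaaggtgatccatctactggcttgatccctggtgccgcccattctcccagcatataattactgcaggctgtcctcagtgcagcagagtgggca
Treh, chr9:44672983-44673232, plus strand: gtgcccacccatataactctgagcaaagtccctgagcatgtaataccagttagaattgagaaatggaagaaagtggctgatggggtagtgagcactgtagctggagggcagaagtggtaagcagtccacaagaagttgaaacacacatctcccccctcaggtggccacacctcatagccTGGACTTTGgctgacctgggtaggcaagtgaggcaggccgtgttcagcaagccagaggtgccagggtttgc
Cyp2c65, chr19:39060756-39061005, plus strand: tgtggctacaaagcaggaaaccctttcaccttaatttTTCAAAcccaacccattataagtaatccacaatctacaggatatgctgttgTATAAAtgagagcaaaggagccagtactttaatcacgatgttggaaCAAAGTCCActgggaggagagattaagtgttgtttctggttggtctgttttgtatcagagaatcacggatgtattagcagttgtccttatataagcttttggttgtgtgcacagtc

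Nop58 and Hells, whose falls came later, are printed for the E2F letters.
Nop58, chr1:59684756-59685005, plus strand: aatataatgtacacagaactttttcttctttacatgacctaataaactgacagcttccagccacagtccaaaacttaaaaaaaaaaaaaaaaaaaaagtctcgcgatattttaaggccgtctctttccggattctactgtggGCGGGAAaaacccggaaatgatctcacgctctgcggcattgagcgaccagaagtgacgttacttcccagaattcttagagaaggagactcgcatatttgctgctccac
Hells, chr19:38930740-38930989, plus strand: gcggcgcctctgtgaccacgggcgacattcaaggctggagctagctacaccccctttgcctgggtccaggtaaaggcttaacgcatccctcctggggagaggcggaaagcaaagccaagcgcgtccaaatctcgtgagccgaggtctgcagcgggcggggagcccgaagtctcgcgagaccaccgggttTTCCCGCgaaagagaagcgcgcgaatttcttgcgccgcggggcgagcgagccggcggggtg

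For contrast, Enpp3 is printed from the 12 largest rises and Lyz1 from the 12 largest falls. Both had 1 start and held at least 1 of the 7 sequences. Enpp3 held TATA box letters 204 to 209 bases before the start, and Lyz1 held the CHR letters. Not every gene was considered in this choice, so a gene with a larger change could also meet these conditions.
Enpp3, chr10:24836196-24836445, minus strand: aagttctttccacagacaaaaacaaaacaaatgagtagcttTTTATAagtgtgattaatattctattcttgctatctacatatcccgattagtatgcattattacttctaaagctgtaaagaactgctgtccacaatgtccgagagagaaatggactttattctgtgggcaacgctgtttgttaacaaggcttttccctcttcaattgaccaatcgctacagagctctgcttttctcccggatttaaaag
Lyz1, chr10:117292869-117293118, minus strand: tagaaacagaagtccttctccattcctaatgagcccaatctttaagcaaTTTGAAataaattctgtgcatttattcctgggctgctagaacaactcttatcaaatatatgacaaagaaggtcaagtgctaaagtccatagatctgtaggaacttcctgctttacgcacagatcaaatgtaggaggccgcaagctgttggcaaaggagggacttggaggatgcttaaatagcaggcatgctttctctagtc

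Markers of secretory cells were prominent among the largest falls. Goblet and Paneth falls were mostly made in Ent-Pro, while endocrine falls were divided between that stage and both steps. The Atoh1-/- genotype, which by its label removes all secretory cells, was common to Ent-Pro and ENT. The first step of these falls therefore cannot be told apart from the genotype. The second step compares groups of the same genotype, which differ in position and time in EDTA. Because the samples are bulk, fewer cells of a type and less RNA per cell cannot be told apart either. Of 13 goblet cell markers 12 fell, with a first-step median of -3.59, and 11 of the 12 were made in Ent-Pro. The mucus lectin Zg16 read 11.77 and 12.06, then 5.45 on both, then 5.80 and 5.55, a 75.4-fold fall (adjusted p = 1.9e-06). Tff3 fell 72.7-fold, from 13.35 on both through 7.22 and 6.77 to 7.10 and 7.23, Spink4, a trypsin inhibitor of goblet cells, fell 42.5-fold, and Fcgbp, a mucus protein, fell 26.7-fold. In all 4 the Ent-Pro level was at or slightly below the ENT level, with shares from 102.7% to 109.0%.

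All 6 measured Paneth markers fell, with a median of -3.54, and 5 were made in Ent-Pro, but the ENT arrays disagreed. Lyz1 read 8.22 on ENT replicate 1 and 11.10 on replicate 2, against 10.31 and 11.15 in Ent-Pro, and fell by 5.07 ± 0.73 (33.5-fold, adjusted p = 0.00039). Its 3 probe sets ranged from -5.30 to -0.53. The matrix protease Mmp7, which matures defensins, read 6.69 and 9.74 in ENT. It fell by 2.95 (adjusted p = 0.011), a call lost without Lgr5+ISC replicate 2 (adjusted p = 0.077). The mean of the list was 6.52 on ENT replicate 1 and 8.40 on replicate 2. Fewer of the list were called lower without Lgr5+ISC replicate 2.

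Of 23 enteroendocrine markers 17 fell, with a median of -1.79, of which 10 were made in Ent-Pro and 7 were split. Fewer fell without ENT replicate 2 or either Lgr5+ISC array. Neurog3, the factor that commits cells to the endocrine fate, read 9.43 and 9.57, then 5.30 and 5.27, then 4.94 and 4.83 (24.6-fold, 91.4% in Ent-Pro). Its 2 probe sets ranged from -4.62 to -1.12. The granule protein Chgb still stood at 9.15 and 8.98 in Ent-Pro, between 11.98 and 12.23 in Lgr5+ISC and 5.87 and 7.03 in ENT, and the hormone Gip at 8.72 and 8.65, between 11.25 and 11.47 and 6.29 and 6.62. Their falls of 50.3- and 29.9-fold had 53.7% and 54.6% in the first step. Of 12 regulators of secretory fate 10 fell, among them Atoh1 (6.34-fold, 74.1%) and Foxa3 (8.50-fold, 31.6%). Fewer of these regulators fell when any of the 6 arrays was left out.

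Immediate-early genes, which respond within minutes to growth signals or to handling of tissue, fell in the first step and partly returned in the second. Of 18 genes, 14 were called lower in the first step and none higher, and in the second 11 were called higher and 3 lower. Over the whole path 11 fell and 1 rose, with a median of -1.29, and 10 of the 11 were made in Ent-Pro. Egr1, a zinc finger factor, read 13.35 and 13.73, then 7.83 and 8.21, then 8.12 and 8.33, a 39.8-fold fall (adjusted p = 3.6e-06). Egr2 was near background in ENT and fell at least 23.8-fold, and Fosb, an AP-1 subunit, fell 19.7-fold. Dusp1, a phosphatase of MAP kinases, read 11.10 and 11.20, then 5.85 and 6.31, then 8.50 and 7.59, so that its second step of 1.96 (adjusted p = 0.00096) recovered part of a first step of -5.07. The Lgr5+ISC arrays were the sorted ones, and the part of the sort in these values was not tested.

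**Figure D5:**
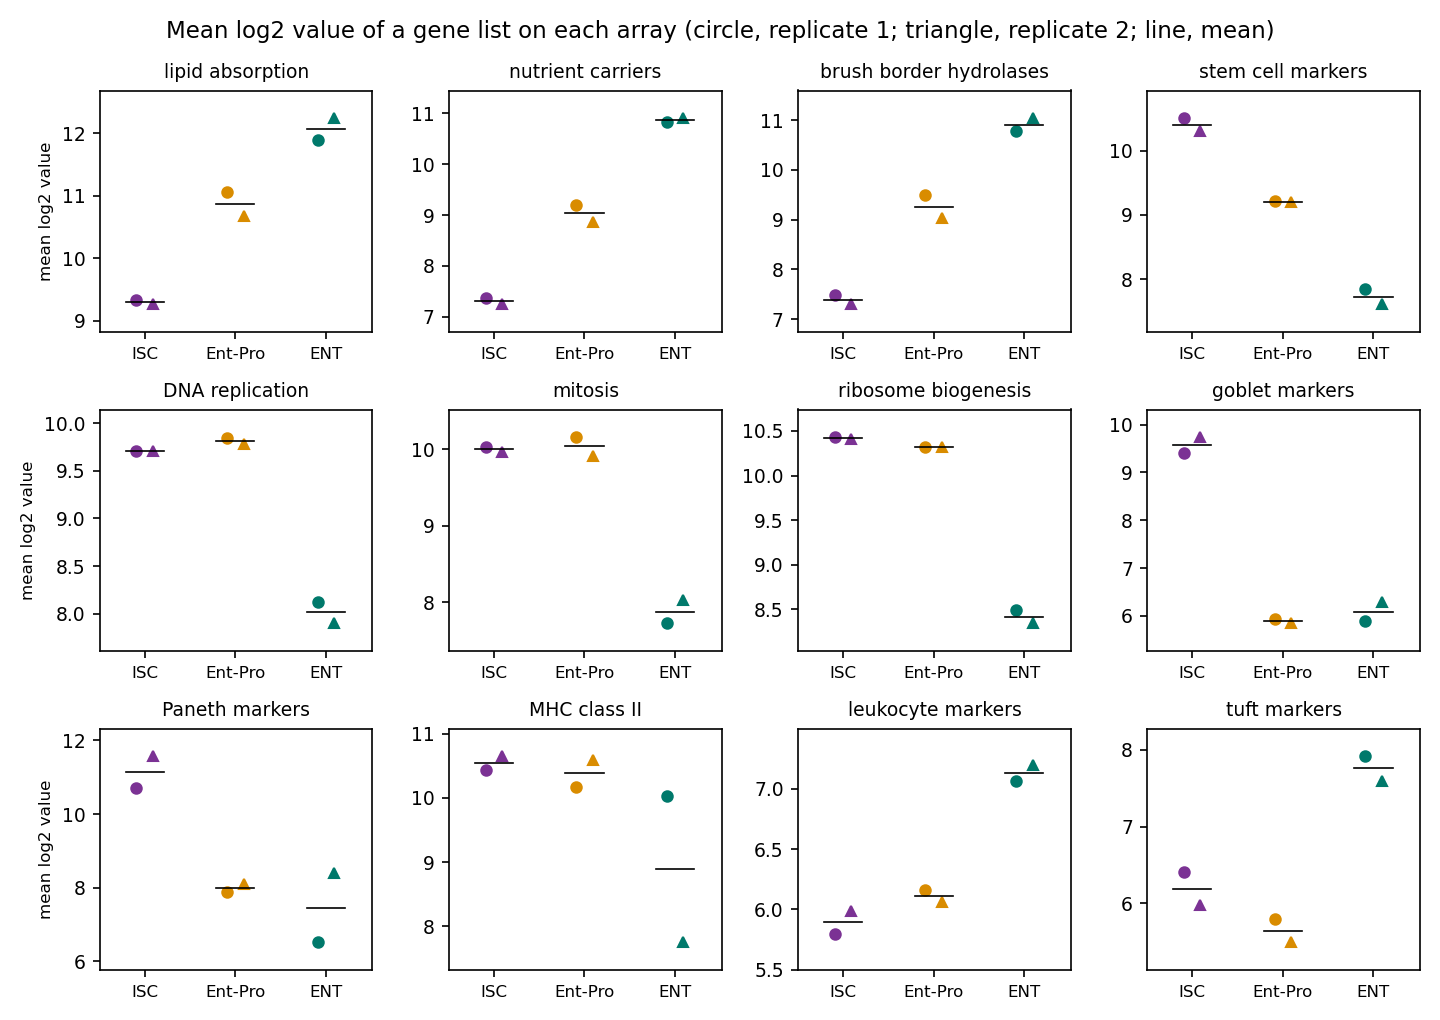
Mean log2 value of 12 gene lists on the 2 Lgr5+ISC, 2 Ent-Pro and 2 ENT arrays (circle, replicate 1; triangle, replicate 2; line, group mean), each panel with its own vertical scale that does not start at 0. The 2 ENT arrays lay close together for absorptive and division genes and far apart for MHC class II genes (10.03 and 7.75) and Paneth markers (6.52 and 8.40).

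Some leukocyte and tuft cell markers rose towards the villus. Of 27 leukocyte markers 13 rose and 2, Lyz2 and Cd68, fell (22.3% and 26.8% of all genes did), with a median of 1.11. Fewer rose when any of the 6 arrays was left out. The mean of the list was 5.80 and 5.99, then 6.16 and 6.06, then 7.06 and 7.20 along the path. The granzymes of cytotoxic lymphocytes led, with Gzma at 6.53 and 7.70, then 9.74 and 9.83, then 12.04 and 12.38 (34.2-fold, adjusted p = 0.00019) and Gzmb higher by 4.06 (16.6-fold). Ptprc, the CD45 antigen of all leukocytes, read 4.40 and 4.56, then 6.18 and 6.06, then 8.39 and 9.05, and was near background in Lgr5+ISC, so its rise was at least 15.3-fold. The B cell genes Cd79a and Ms4a1 and the macrophage receptor Csf1r were not called (adjusted p = 0.91, 0.94 and 0.76). The part of leukocytes in the rises above was not tested.

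Of 9 tuft cell markers 6 rose (22.3% of all genes did), none fell, and all 6 came later. The count was 2 without ENT replicate 1 or Lgr5+ISC replicate 2 and 3 without ENT replicate 2. The lipoxygenase-activating protein Alox5ap read 7.93 and 7.21, then 7.24 and 6.41, then 11.14 and 10.64 (a rise of 3.32, adjusted p = 0.0044). Trpm5, the taste channel, rose 4.91-fold, and the kinase Dclk1 rose 13.5-fold (adjusted p = 0.01), a call lost without ENT replicate 1 or Lgr5+ISC replicate 2 (adjusted p = 0.062 and 0.075). Its 6 probe sets ranged from 0.02 to 3.75, and their mean gave 1.17 (adjusted p = 0.091). Avil, an actin-binding protein, rose by 2.06 (adjusted p = 0.037) and was not called without ENT replicate 1, ENT replicate 2 or Lgr5+ISC replicate 2 (adjusted p = 0.17, 0.066 and 0.22) or with the replicate block (adjusted p = 0.053). Siglecf, a sialic acid receptor known from eosinophils and tuft cells, rose 16.9-fold from 6.33 and 5.47 through 5.20 and 4.78 to a mean of 9.98 in ENT.

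Of 20 stromal markers 5 rose, a share near the 22.3% of all genes, and none fell, with a median of 0.25 and counts of 2 to 4 when any 1 of the 6 arrays was left out, the count of 4 being that without Lgr5+ISC replicate 2. Fn1, fibronectin, stood apart from the list at 5.41 and 5.87, then 6.00 and 5.65, then 11.32 and 11.34, a 51.6-fold rise (adjusted p = 0.00015) with 3.2% in the first step. Its 2 probe sets rose by 0.92 and 5.69. The other 4 that passed were Col1a1 (0.39), Acta2 (0.66), Lum and Thy1. The last 2 were near background in Lgr5+ISC, which bounds their rises at no less than 1.05-fold for Lum and 1.63-fold for Thy1. The calls of Col1a1, Acta2 and Thy1 were each lost in at least 1 alternative.

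Antigen presentation by MHC class II could not be placed, because the ENT arrays differed. The mean of the 6 measured genes was 10.43 and 10.64 in Lgr5+ISC, 10.18 and 10.59 in Ent-Pro, 10.03 on ENT replicate 1 and 7.75 on ENT replicate 2. Ciita, the transactivator of these genes, was called lower (4.56-fold, adjusted p = 0.00095), at 7.31 and 7.80, then 6.25 and 6.65, then 5.64 and 5.09. The other 5 were not called, H2-DMa for instance at 9.42 and 7.30 in ENT against 9.93 and 9.85 in Lgr5+ISC (adjusted p = 0.22).

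A pair of genes with large late falls also differed between the ENT arrays. Ceacam10, a member of the carcinoembryonic antigen family, read 11.26 and 11.65, then 11.29 and 12.10, then 8.82 and 6.46 (14.1-fold, adjusted p = 0.00087), and 1 of its 3 probe sets went the opposite way. Gm6958 read 9.16 and 9.45, then 8.56 and 9.73, then 6.66 and 4.81. Rif1, which times replication, fell 6.41-fold with a share of -9.7%.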

How the data were processed

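Gene expression was measured in 10 samples, 1 Affymetrix 430A 2.0 array each. The values are log2 intensities as deposited by the authors; RMA and MAS5 are named, per the submitters' processing notes, with no role, version or order, so which made these values is not given in the sources used here. Of 22690 probe sets, 20393 had 1 gene symbol, 691 several and 1606 none in the platform annotation. Control probe sets (64) were left out, and of each gene's probe sets that with the highest mean over the 10 arrays was kept, giving 12393 genes.

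The values were fitted with limma 3.58.1 in R 4.3.3 as 5 group means (5 residual and 3.75 prior degrees of freedom), with Benjamini-Hochberg adjustment over all genes and a threshold of 0.05. The code was tested on simulated data. A group was near background where both arrays lay within 1 (log2) of the absent control TrpnX, and its fold is then at least the value computed against that bound, which was set after seeing the data. The number of arrays limits the precision.

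Genes were named by rule: the 12 largest changes and 6 largest steps per direction among main genes, up to 4 called members of each of 28 lists by size, and a fixed list of 18 genes of which 16 were measured. Fabp6, Lum, Cd68, Cd79a, Ms4a1, Csf1r and the genes listed by promoter letters were chosen after their values were seen, and 1 promoter of that choice is not reported here. Lists held 518 genes, 457 of them measured. Of 130 named genes, 60 had more than 1 probe set, and 5 had a probe set of opposite sign. The members and lists were chosen with earlier results of these data known. Same-numbered arrays deviated from their group means with correlations of -0.192 to 0.174. With 2 arrays a group these values cannot decide whether replicate numbers pair the samples, and the main fit used no pairing. Alternatives changed the scaling, the probe set rule, a filter on dim genes, the arrays fitted, a replicate block, a test against a 2-fold change, and each of the 6 arrays left out in turn.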

Additional observations from a re-analysis of the deposited data

How the results depend on the processing

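The count of genes called between ENT and Lgr5+ISC (6094) ranged from 5176 to 5775 when 1 of the 6 arrays was left out, and the count between Ent-Pro and Lgr5+ISC (3165) from 1704 to 3094. Tested against a 2-fold change, 1612 genes were called, 773 higher and 839 lower, a stricter hypothesis by construction. Main genes that rose after Ent-Pro numbered 83 rather than 153 among genes above the median level, where fewer genes were tested, and those that fell after it 103 rather than 159 with the mean of probe sets, of which the cause was not tested. Cyclic loess called 6128 genes, 50.3% of them higher against 45.4%, and median centring 6173, 50.9% higher. With the replicate block 5922 genes were called, 5871 of them among the 6094. Whether the replicate numbers pair the samples was not given. Of the 994 main genes, 780 to 994 were main genes under each alternative, and the share of a gene close to 25% or 75% moved across the boundary in several of them. Of 128 named genes called, 118 were called in the same direction under every alternative that tested them, and none reversed. With 2 arrays a group, small changes may go uncalled, and values near background or near the top of the scale understate a change.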

Other observations

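Among cell cycle regulators outside the replication and mitosis lists, single genes stood out more than the list. Of 16 cyclins and inhibitors of cyclin-dependent kinases 5 rose and 6 fell in ENT by the limma fit (22.3% and 26.8% of all genes did), with a median of -0.19, and 3 fell without ENT replicate 1 or Lgr5+ISC replicate 1. The D-type cyclins Ccnd1 and Ccnd2 fell late. Ccnd1 read 11.01 and 10.86 in Lgr5+ISC, 11.08 and 11.48 in Ent-Pro and 9.01 and 8.26 in ENT (4.93-fold, adjusted p = 0.00028). Ccnd2 fell 5.67-fold with 15.4% in the first step. The inhibitor Cdkn2b rose earlier, at 6.73 and 6.60, then 9.09 and 8.77, then 10.74 on both (16.8-fold, adjusted p = 4.8e-06, 55.6% in Ent-Pro). The cyclin Ccng2, of resting cells, rose 8.34-fold with 24.5%, a share that passed 25% in some alternatives (31.0% with the mean of probe sets).

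Genes listed as markers of all epithelium moved less, apart from Krt20 (5.16) and Vil1 (1.65). Of 8 genes 5 rose and 1 fell (22.3% and 26.8% of all genes did), with a median of 0.43, and fewer rose without ENT replicate 1. Epcam, an adhesion molecule, rose by 0.65 (adjusted p = 0.00088) and the keratin Krt18 fell by 0.72 (adjusted p = 0.0028). Of 12 stress genes 4 rose and 2 fell, not far from the shares of all genes. The count that rose was 1 to 2 without any single ENT or Lgr5+ISC array. Trib3, a pseudokinase of the stress response, rose 3.33-fold, and the chaperone Hsp90aa1 fell by 1.25 after Ent-Pro.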
